A study of Mus musculus with 29 samples.

Results

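ERK, the mitogen-activated protein (MAP) kinase at the end of the Ras-Raf-MEK cascade, switches on genes whose products switch it off again. Dual-specificity phosphatases of the Dusp family remove phosphate from both the threonine and the tyrosine of an active MAP kinase, and they differ in the kinase they prefer and in whether they act in the nucleus or the cytoplasm. Sprouty proteins act further upstream, between receptor tyrosine kinases and Ras or Raf, and Spred proteins bring the Ras GTPase-activating protein neurofibromin to the membrane. In early B cell development, ERK signals come from the pre-B cell receptor and from cytokine receptors, and the transcripts of these inhibitors are widely used as a readout of the pathway.

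The 10 genes examined were Dusp1, Dusp2, Dusp4, Dusp5, Dusp6, Dusp10, Spry1, Spry2, Spred1 and Spred2. They were chosen by symbol and not by a rule on their values, though earlier results of these data were known. All 10 were found by name among the 24732 entries of the Pax5+/+ and Pax5-/- tables and among the 25588 entries of the Meox2-cre tables. The RNA-seq data came from C57BL/6 mice and from cells sorted by flow cytometry after isolation ex vivo. They comprised 3 libraries of wild-type (Pax5+/+) pro-B cells, 2 libraries of Pax5(-/-) (Pax5-/-) pro-B cells, which lack the B cell commitment factor Pax5, and 3 libraries of Pax5(+/+) Meox2-cre (Meox2-cre) pro-B cells. Meox2-cre drives Cre recombinase throughout the body, and these cells were pooled before library preparation and, per the study's methods, came from mice aged 3 weeks. The labels were followed for their Pax5 genotype, although the list of sequenced samples in the study gives it as heterozygous. The labels give no age for the other libraries and no animal for any library, so p-values measure the spread between libraries. According to the study's methods, wild-type pro-B cells and Pax5-deficient progenitors were both sorted as Kit-positive cells but by different further surface markers, with Ly6D required of the progenitors only. The gate therefore changed with the genotype, and an effect of the genotype and an effect of the gate on any gene below cannot be told apart.

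All values are TPM, a transcript level corrected for length that sums to 1000000 in each library, so the depth in reads is unknown. An estimate of relative depth from the low values, with Pax5+/+ replicate 1 as 1, gave 0.855 and 1.54 for Pax5-/- replicates 1 and 2. It gave 1.02 and 1.03 for Pax5+/+ replicates 2 and 3. Between 9133 and 9637 entries exceeded 5 TPM in a library. Pax5 itself was measured at 342 to 391 TPM in Pax5+/+, at 43.0 and 39.1 TPM in Pax5-/- and at 376 to 397 TPM in Meox2-cre libraries, in the order that the labels call for. Which part of the gene the values in Pax5-/- cells came from was not resolved by these tables. Of the B-lineage and sort markers, Ly6d rose from between 190 and 270 TPM to 2258 and 3033 TPM, matching the gates. The summed level of 6 T-lineage markers was 1.03 to 1.88 TPM in Pax5+/+, 4.32 and 6.76 TPM in Pax5-/- and 1.39 to 2.03 TPM in Meox2-cre libraries. Only 1 of the 6 was high enough to be tested, Cd4, which rose from 0.368 to 0.712 TPM in Pax5+/+ to 3.97 and 5.88 TPM in Pax5-/- libraries. Cd3d, Cd3e, Cd3g, Cd8a and Cd8b1 reached 0.432 TPM at most in both genotypes. The summed level of the myeloid markers was 41.1, 244 and 151 TPM in Pax5+/+ replicates 1, 2 and 3, 55.9 and 79.4 TPM in Pax5-/- and 375 to 771 TPM in Meox2-cre libraries. That of 4 erythroid markers was 19.4 to 57.5 TPM in Pax5+/+ and 9.78 and 4.55 TPM in Pax5-/- libraries, with Hbb-b1 at 0 in all of them. Natural killer markers summed to 4.69 to 14.7 TPM in Pax5+/+ and 22.3 and 29.2 TPM in Pax5-/- libraries. Among them Nkg7 and Gzma rose and Klrb1c fell in Pax5-/- cells. Plasmacytoid dendritic markers summed to 161 to 214 TPM and 174 and 225 TPM, mostly Bst2 and Tcf4. Tcf4 fell, while Siglech rose from 0.106 to 1.12 TPM in Pax5+/+ to 1.79 and 9.06 TPM in Pax5-/- libraries. The part of these cells in the results was not tested.

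RefSeq promoters (build GRCm38.p6) were found for 9 of the 10 genes. The 250 bases before the start of transcription are shown, 5′ to 3′ on the gene's strand, for Dusp5 and Spry1, which rose most in Pax5-/- cells, for Spred2, which fell most, and for Dusp1, an immediate early gene. Capitals mark matches to the motifs searched on both strands, which were the CArG box bound by serum response factor, the cyclic AMP response element TGACGTCA, the AP-1 element TGANTCA, the STAT element TTCNNNGAA, the ETS element CCGGAAG and the E-box CACGTG.
Dusp5, chr19:53528895-53529144, + strand: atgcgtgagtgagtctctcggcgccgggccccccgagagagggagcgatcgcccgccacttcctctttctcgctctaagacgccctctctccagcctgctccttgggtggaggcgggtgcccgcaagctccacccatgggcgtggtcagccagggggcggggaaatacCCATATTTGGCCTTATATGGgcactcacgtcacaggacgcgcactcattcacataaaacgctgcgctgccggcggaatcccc
Spry1, chr3:37639697-37639946, + strand: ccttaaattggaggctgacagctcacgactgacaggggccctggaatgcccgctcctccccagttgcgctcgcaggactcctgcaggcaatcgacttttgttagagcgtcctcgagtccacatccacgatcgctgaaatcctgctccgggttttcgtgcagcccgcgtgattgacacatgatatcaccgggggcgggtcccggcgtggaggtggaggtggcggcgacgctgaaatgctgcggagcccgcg
Spred2, chr11:19924192-19924441, + strand: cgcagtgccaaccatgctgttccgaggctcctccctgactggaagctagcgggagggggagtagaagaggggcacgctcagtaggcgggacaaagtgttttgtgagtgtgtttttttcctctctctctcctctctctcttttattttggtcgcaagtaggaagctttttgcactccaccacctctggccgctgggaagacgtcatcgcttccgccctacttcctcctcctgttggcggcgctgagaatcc
Dusp1, chr17:26508473-26508722, - strand: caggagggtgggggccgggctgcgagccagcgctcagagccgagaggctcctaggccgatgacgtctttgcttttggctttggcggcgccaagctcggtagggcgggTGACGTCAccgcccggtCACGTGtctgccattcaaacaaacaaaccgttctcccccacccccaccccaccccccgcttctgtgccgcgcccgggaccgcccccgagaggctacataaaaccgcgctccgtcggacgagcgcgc

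The Dusp5 window held 2 adjoining CArG boxes, from 82 to 73 and from 72 to 63 bases before the start. A CArG box occurred in 1.47% of all 32851 promoter windows of the same length, and among the 9 genes in Dusp5 alone. The Dusp1 window held 1 TGACGTCA, present in 1.55% of all windows, and 1 CACGTG, present in 6.02% and also found in the Dusp2 window. The other 3 motifs occur in 6.75% (TGANTCA), 7.02% (TTCNNNGAA) and 6.91% (CCGGAAG) of all windows and in none of the 9. These matches describe letters in a short window and not binding.

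The levels of the 10 genes in Pax5+/+ pro-B cells spanned a wide range. Dusp2, a nuclear phosphatase first found in activated lymphocytes, was the highest at 304 ± 32.2 TPM (SD, n = 3), above 97.6% of all entries, and Dusp6, the ERK-selective phosphatase of the cytoplasm, followed at 86.1 ± 11.5 TPM. Spred2 (55.0 ± 8.29 TPM), Dusp5 (31.7 ± 7.20 TPM), Dusp1 (24.8 ± 1.13 TPM) and Spry2 (17.0 ± 3.46 TPM) took the middle of the order. Spred1 (9.61 ± 2.26 TPM), Dusp10 (8.93 ± 1.32 TPM), Spry1 (4.42 ± 1.12 TPM) and Dusp4 (2.55 ± 0.324 TPM) were the lowest. The ranges of neighbours in this order over the Pax5+/+ libraries did not overlap, except those of Dusp5 and Dusp1 and those of Spred1 and Dusp10.

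In Pax5-/- cells Dusp2 remained first and Dusp5 moved to rank 2, above Dusp6, while Spry1 moved from rank 9 to rank 4. The ranges of Spry1 and Spred2, of Spred2 and Dusp1, and of Dusp4 and Spred1 overlapped there, and the other neighbours were apart in both libraries. By group means, each of the 10 genes had the same rank in Meox2-cre as in Pax5+/+ cells, and the Meox2-cre ranges of Dusp1 and Spry2 and of Spred1 and Dusp10 overlapped. Their reads were mapped to mm10 instead of mm9 and with a different aligner, so their levels are set beside the others without a test.

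**Figure D1:**
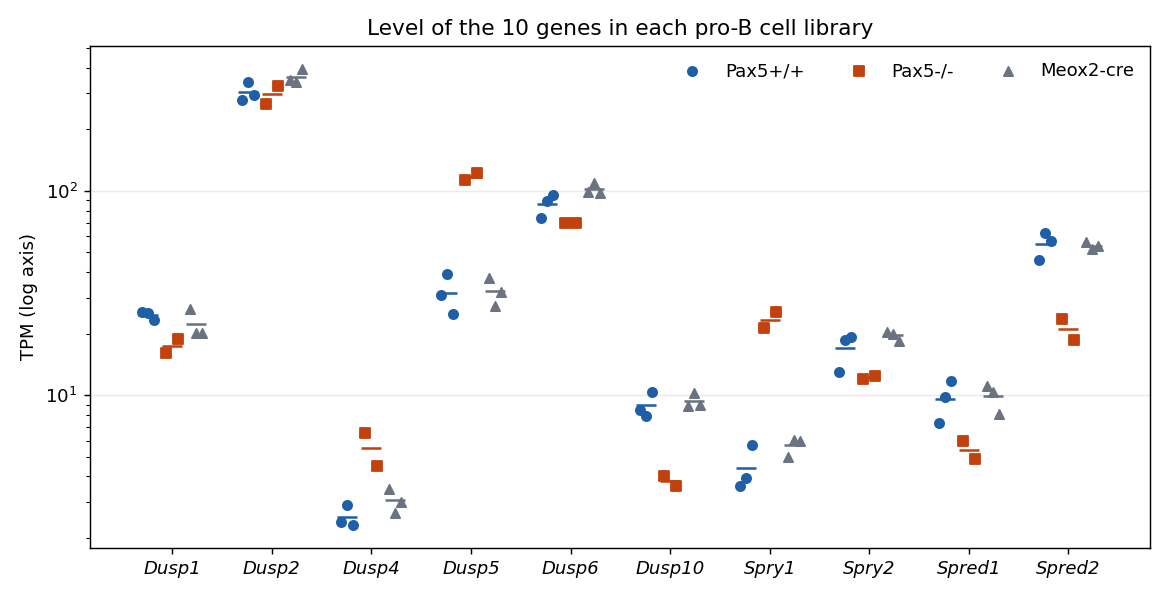
TPM of the 10 genes in each library on a log axis, with 3 Pax5+/+ (circles), 2 Pax5-/- (squares) and 3 Meox2-cre (triangles) libraries and a bar at each group mean. Dusp5 and Spry1 stand apart upward in Pax5-/- libraries, Spred2 and Dusp10 stand apart downward, and Dusp2 overlaps.

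The comparison of Pax5-/- with Pax5+/+ pro-B cells asks which of these inhibitors change where Pax5 is absent. Spry1, Dusp5 and Dusp4 rose in Pax5-/- cells, and Spred2, Dusp10, Spred1 and Dusp1 fell. Dusp2, Dusp6 and Spry2 did not pass the test. The 3 genes that rose are 1 Sprouty and 2 nuclear phosphatases, and both Spred genes were among the 4 that fell. The test was limma on log2(TPM + 0.5) over the 12066 genes whose mean exceeded 1 TPM in either genotype, at a threshold of 0.05 on the adjusted p (Benjamini-Hochberg). All 10 genes passed this filter on low values. By this rule 15.6% of all genes tested rose and 21.5% fell, so that changes were common and 3 and 4 of 10 are to be read against these shares. Under the study's stricter rule, which adds a 3-fold limit and a minimum mean of 5 TPM, Spry1 and Dusp5 were called higher, against 2.74% of all genes, and 0 were called lower, against 3.19%. Of the 10 genes, 7 had an unadjusted p below 0.05. The median log2 fold change was -0.37 over the 10 genes and -0.12 over all genes tested.

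The libraries of both genotypes did not overlap for 9 of the 10 genes, Dusp2 being the exception, beside 63.4% of all genes tested. With 3 against 2 libraries, the exact two-sided permutation test cannot give a p below 0.1. It gave 0.1 for 6 genes, 0.2 for Dusp6, Spry2 and Spred1, and 0.8 for Dusp2. In bulk cells a lower level of a transcript per cell and fewer cells that express it cannot be told apart. Of the 3 Pax5+/+ libraries, replicate 1 had the lowest level of 6 of the 10 genes and also the lowest summed myeloid markers, and the part of these markers in the levels was not tested.

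Spry1 encodes a Sprouty protein that restrains receptor tyrosine kinase signals to Ras. Its level was 3.61, 3.94 and 5.70 TPM in the Pax5+/+ libraries and 21.4 and 25.4 TPM in the Pax5-/- libraries. Every Pax5-/- library was thus above every Pax5+/+ library by a wide margin, and the Meox2-cre libraries, at 4.97, 6.07 and 5.99 TPM, lay near the Pax5+/+ range. The mean rose 5.30-fold, and the difference on the log2(TPM + 0.5) scale was 2.30 (SE 0.23, 95% interval 1.77 to 2.84, limma adjusted p = 0.000323). The gene lies on chromosome 3 of mm9, from 37538869 to 37543520 on the + strand in the GENCODE annotation.

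Spry2, its paralog, did not follow. It was at 13.0, 18.7 and 19.2 TPM in Pax5+/+, at 12.1 and 12.4 TPM in Pax5-/- and at 18.5 to 20.3 TPM in Meox2-cre libraries. Both Pax5-/- libraries were below the Pax5+/+ range, but replicate 1 of Pax5+/+ was close to them. The difference was -0.43 (SE 0.20, 95% interval -0.91 to 0.04, limma adjusted p = 0.130), and without Pax5+/+ replicate 1 it was -0.61 with an adjusted p of 0.0155. As a result, the ratio of Spry1 to Spry2 was 0.278, 0.211 and 0.296 in Pax5+/+ libraries, 1.77 and 2.05 in Pax5-/- libraries and 0.245 to 0.324 in Meox2-cre libraries. Spry2 was the more abundant of both genes in Pax5+/+ and Meox2-cre cells, and Spry1 in Pax5-/- cells. Their summed level was 16.6 to 24.9 TPM in Pax5+/+ and 33.5 and 37.8 TPM in Pax5-/- libraries. Spry2 lies on chromosome 14 of mm9 (106291166 to 106296036, - strand).

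**Figure D2:**
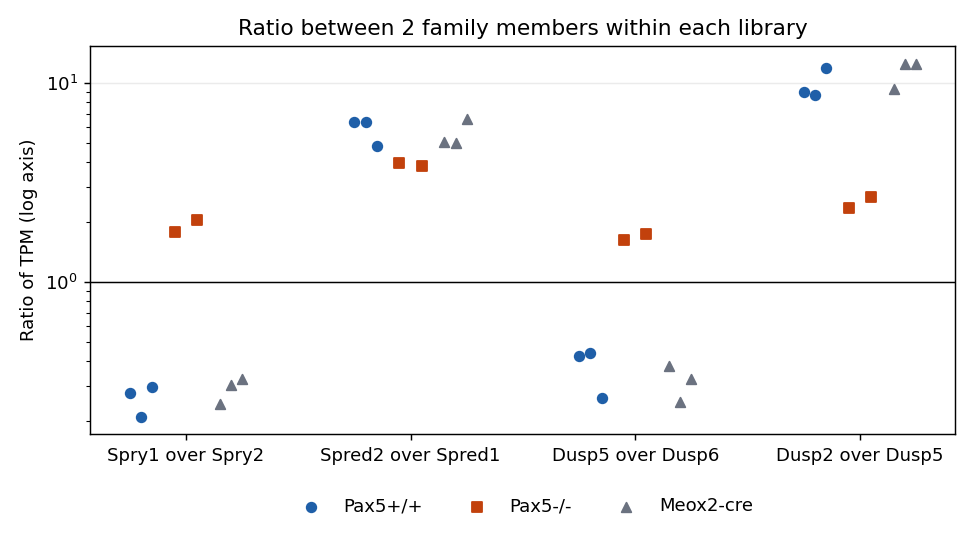
Ratio of TPM between 2 family members within each library, on a log axis with a line at 1, for Pax5+/+ (circles), Pax5-/- (squares) and Meox2-cre (triangles) libraries. The ratios of Spry1 to Spry2 and of Dusp5 to Dusp6 lie above 1 only in the Pax5-/- libraries, and that of Dusp2 to Dusp5 is lowest there.

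Dusp5, a nuclear phosphatase with a strong preference for ERK, showed the other large rise. Its level was 31.0, 39.2 and 24.9 TPM in Pax5+/+ and 112 and 122 TPM in Pax5-/- libraries. Both Pax5-/- libraries were far above the Pax5+/+ range, and the Meox2-cre libraries, at 37.4, 27.3 and 31.9 TPM, were within it. The mean rose 3.69-fold, and the log2 difference was 1.89 (SE 0.19, 95% interval 1.46 to 2.32, limma adjusted p = 0.000302). The gene lies on chromosome 19 of mm9 (53603599 to 53616921, + strand), and its promoter is the one with the pair of CArG boxes shown above.

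Dusp4, a nuclear phosphatase of ERK and JNK, was the lowest of the 10 genes in Pax5+/+ cells. It was at 2.40, 2.92 and 2.32 TPM in Pax5+/+, at 6.53 and 4.49 TPM in Pax5-/- and at 2.66 to 3.48 TPM in Meox2-cre libraries. The Pax5-/- libraries were above the Pax5+/+ range and differed from each other. The log2 difference was 0.97 (SE 0.25, 95% interval 0.39 to 1.54, limma adjusted p = 0.0193). The call was lost without either Pax5-/- library, with an adjusted p of 0.174 without replicate 1 and of 0.0628 without replicate 2. Dusp4 lies on chromosome 8 of mm9 (35870351 to 35882948, + strand).

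Dusp1, the classical immediate early phosphatase, which acts on JNK and p38 as well as ERK, was at 25.4, 25.4 and 23.4 TPM in Pax5+/+ and at 16.0 and 18.9 TPM in Pax5-/- libraries. The Pax5-/- libraries were lower by a small margin, and of the Meox2-cre libraries at 26.5, 20.1 and 20.2 TPM, the first lay above every Pax5+/+ library and the other 2 between both genotypes. The difference was -0.50 (SE 0.14, 95% interval -0.83 to -0.17, limma adjusted p = 0.0287). The call was lost when the libraries were rescaled by median ratios (adjusted p = 0.0853) or quantile normalized (0.0933), and without Pax5+/+ replicate 2 (0.0785), Pax5-/- replicate 1 (0.233) or Pax5-/- replicate 2 (0.106). Relative to the median of all genes, Dusp1 differed by -0.38. It lies on chromosome 17 of mm9 (26642535 to 26645464, - strand).

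Dusp2 was at 278, 340 and 294 TPM in Pax5+/+, at 265 and 327 TPM in Pax5-/- and at 347, 341 and 396 TPM in Meox2-cre libraries. The ranges of the genotypes overlapped. The difference was -0.04 (SE 0.13, 95% interval -0.35 to 0.27, limma adjusted p = 0.822), and its sign turned with the scaling, at 0.07 after median-ratio rescaling. Dusp2 alone made up 65.3% to 67.3% of the summed TPM of the 6 phosphatases in Pax5+/+ libraries and 56.0% and 60.0% in Pax5-/- libraries. The ratio of Dusp2 to Dusp5 was 8.67 to 11.8 in Pax5+/+ and 2.36 and 2.69 in Pax5-/- libraries. Dusp2 lies on chromosome 2 of mm9 (127161895 to 127164112, + strand).

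Dusp6 is transcribed in response to ERK and acts on it in the cytoplasm, and its transcript is often taken as a measure of ERK activity. It was at 73.3, 89.6 and 95.5 TPM in Pax5+/+ and at 69.3 and 69.7 TPM in Pax5-/- libraries, against 97.5 to 109 TPM in Meox2-cre libraries. The Pax5-/- libraries were nearly equal to each other and just below the lowest Pax5+/+ library. The difference was -0.30 (SE 0.13, 95% interval -0.61 to 0.01, limma adjusted p = 0.116), and without Pax5+/+ replicate 1 it was -0.41 with an adjusted p of 0.0240. The ratio of Dusp5 to Dusp6 was 0.261 to 0.438 in Pax5+/+ and 1.62 and 1.75 in Pax5-/- libraries, so that the nuclear ERK phosphatase was the more abundant transcript of both in Pax5-/- cells. Dusp6 lies on chromosome 10 of mm9 (98725865 to 98730122, + strand).

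Dusp10 encodes a phosphatase that prefers JNK and p38 over ERK. It was at 8.45, 7.92 and 10.4 TPM in Pax5+/+, at 4.04 and 3.60 TPM in Pax5-/- and at 8.87 to 10.3 TPM in Meox2-cre libraries. Both Pax5-/- libraries lay well below all the others. The mean of Pax5+/+ was 2.34 times that of Pax5-/- libraries, and the log2 difference was -1.12 (SE 0.20, 95% interval -1.60 to -0.64, limma adjusted p = 0.00488). The call was lost without either Pax5-/- library, with an adjusted p of 0.0565 without replicate 1 and of 0.0844 without replicate 2. Dusp10 lies on chromosome 1 of mm9 (185837181 to 185899515, + strand).

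Both Spred genes fell. Spred2 was at 46.1, 62.4 and 56.5 TPM in Pax5+/+, at 23.6 and 18.6 TPM in Pax5-/- and at 56.0, 52.1 and 53.6 TPM in Meox2-cre libraries. The Meox2-cre values lay inside the Pax5+/+ range and the Pax5-/- values far below it. The Pax5+/+ mean was 2.61 times the Pax5-/- mean, and the log2 difference was -1.36 (SE 0.17, 95% interval -1.76 to -0.96, limma adjusted p = 0.000952). Spred2 lies on chromosome 11 of mm9 (19824378 to 19924029, + strand).

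Spred1 was at 7.27, 9.78 and 11.8 TPM in Pax5+/+, at 5.98 and 4.86 TPM in Pax5-/- and at 8.11 to 11.1 TPM in Meox2-cre libraries. The genotypes were apart but close to each other. The difference was -0.75 (SE 0.24, 95% interval -1.32 to -0.19, limma adjusted p = 0.0430). The call was lost with no filter on low values (adjusted p = 0.0872), without Pax5+/+ replicate 2 (0.112) or 3 (0.0774), and without Pax5-/- replicate 1 (0.150) or 2 (0.305). Spred1 lies on chromosome 2 of mm9 (116947110 to 117008015, + strand). The summed level of both Spred genes was 53.3 to 72.2 TPM in Pax5+/+ and 29.5 and 23.4 TPM in Pax5-/- libraries, and the ratio of Spred2 to Spred1 was 4.80 to 6.38 and 3.94 and 3.82, respectively.

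**Figure D3:**
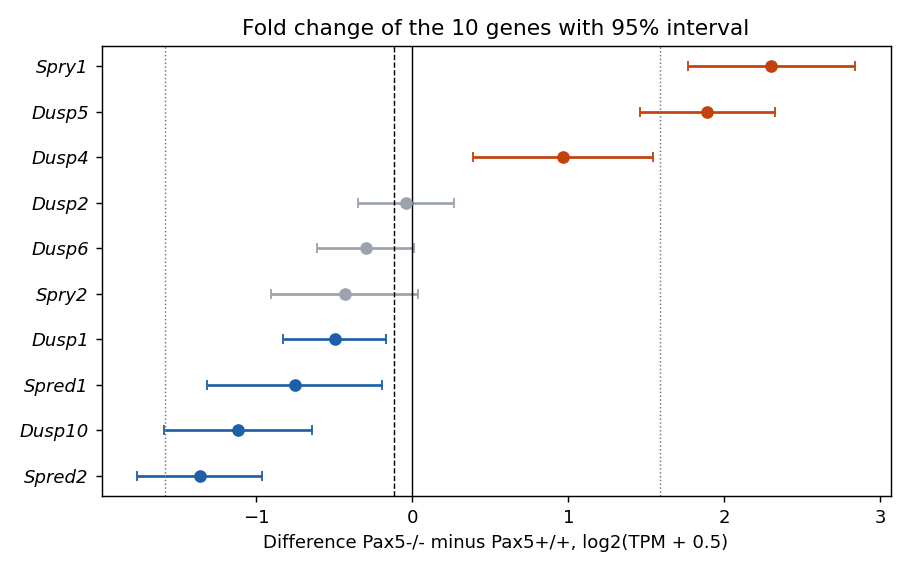
Difference between Pax5-/- and Pax5+/+ cells for each of the 10 genes on the log2(TPM + 0.5) scale, with 95% intervals from limma, a solid line at 0, a dashed line at the median of all genes (-0.12) and dotted lines at a 3-fold change. Red genes rose, blue genes fell and grey genes did not pass an adjusted p of 0.05, and the interval of Spry1 alone lies wholly beyond the 3-fold line.

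Taking the 10 genes as one sum, their transcripts made up 489 to 600 TPM in Pax5+/+, 537 and 607 TPM in Pax5-/- and 599 to 644 TPM in Meox2-cre libraries. The ranges of both genotypes overlapped, and Dusp2 made up the largest part of the sum in every library. No exon of another gene overlaps the exons of any of the 10 genes in the GENCODE annotation of mm9.

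The other MAP kinase phosphatases and relatives were read in the same fit. Dusp7, a cytoplasmic ERK phosphatase closely related to Dusp6, was at 83.8, 143 and 96.1 TPM in Pax5+/+ and at 31.4 and 27.7 TPM in Pax5-/- libraries, a log2 difference of -1.81 (SE 0.22, limma adjusted p = 0.000755). Dusp9, of the same subgroup, rose from 3.14 to 8.12 TPM in the mean (1.27, SE 0.25, adjusted p = 0.00670), and Dusp8 fell from 1.29 to 0.205 TPM (adjusted p = 0.0300), while Dusp16 did not pass (adjusted p = 0.174). Dusp8 passed the filter on low values only through its Pax5+/+ mean, so its test is not separate support for the fall. The calls of Dusp8 and Dusp9 were lost without either Pax5-/- library. Without replicate 1 the adjusted p was 0.0865 for Dusp8 and 0.0807 for Dusp9, and without replicate 2 it was 0.185 and 0.0873. That of Dusp8 was also lost without Pax5+/+ replicate 2 (0.0596). Of the remaining Sprouty and Spred genes, Spred3 was at 0.905 to 1.33 TPM without a call, and Spry4 stayed below the filter at up to 0.649 TPM in both genotypes.

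Of 94 other genes of the pathway in 10 lists, these relatives included, 84 were tested, of which 11 rose and 26 fell in Pax5-/- cells, 13.1% and 31.0%, respectively, against 15.6% and 21.5% of all genes. Their median log2 fold change was -0.26. Of 13 genes of the core cascade, 3 fell (23.1%), Rras2 (-0.42) among them, and the other 10 did not pass the test. Of 9 JNK and p38 kinase genes, 4 fell (44.4%) and the other 5 did not pass. Mapk11, which encodes p38 beta, went from 13.4 to 2.98 TPM (-1.99, SE 0.18, adjusted p = 0.000230), and Mapk14, Map2k6 and Map2k3 fell by less than 1 on the log2 scale.

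Among 12 activators and adaptors of Ras, 1 rose (8.33%) and 4 fell (33.3%), against 15.6% and 21.5% of all genes tested. Rasgrp3, a guanine nucleotide exchange factor for Ras, was at 4.67 to 5.52 TPM in Pax5+/+ and at 21.8 and 27.9 TPM in Pax5-/- libraries (2.21, SE 0.19, limma adjusted p = 0.000166). Rasgrp2, which acts mainly on Rap1, fell from 688 to 453 TPM (-0.60), and the adaptors Gab1 (-1.39) and Crkl (-0.49) fell. Of 8 Ras GTPase-activating proteins, 2 rose and 3 fell. Rasal3 rose from 96.8 to 168 TPM (0.79, SE 0.09, adjusted p = 0.000632). Nf1, the partner of Spred proteins, was at 6.50 to 8.82 TPM in Pax5+/+ and at 5.36 and 3.94 TPM in Pax5-/- libraries (-0.73, SE 0.23, adjusted p = 0.0420), and Rasa2 also fell (-0.97). Of 4 partners of Sprouty and Spred tested, 1 fell, the kinase gene Tesk1, from 37.1 to 17.9 TPM (-1.03, SE 0.13, adjusted p = 0.00104).

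Of 16 genes tested in the list of ERK-responsive transcription factors and early genes, 3 rose and 6 fell. These are 18.8% and 37.5%, against 15.6% and 21.5% of all genes tested. Egr1, a zinc finger factor of the immediate early response, was at 16.2, 24.4 and 20.4 TPM in Pax5+/+ and at 4.34 and 3.92 TPM in Pax5-/- libraries (-2.15, SE 0.21, limma adjusted p = 0.000292). Egr3 was at 2.25 to 3.68 TPM in Pax5+/+ and at 0 and 0.0579 TPM in Pax5-/- libraries (adjusted p = 0.000539), and passed the filter on low values only through its Pax5+/+ mean. Phlda1 (-2.79, SE 0.22) and Jund (-1.95, SE 0.20) also fell. Outside the naming rule and chosen after their values were seen, Myc (1.23), Egr2 (1.74) and Fosl2 (0.79) were the 3 that rose. Egr2 passed the filter on low values only through its Pax5-/- mean. Fos, chosen in the same way, was high in 1 library of each genotype, with 21.7, 4.75 and 4.91 TPM in Pax5+/+ and 1.56 and 32.1 TPM in Pax5-/- libraries. Fosb and Jun, also chosen after their values were seen, were highest within each genotype in the same libraries as Fos, with Jun at 73.0 TPM in Pax5+/+ replicate 1 and 53.5 TPM in Pax5-/- replicate 2. Dusp1 was nearly equal in Pax5+/+ replicates 1 and 2, at 25.4, 25.4 and 23.4 TPM, and was at 16.0 and 18.9 TPM in Pax5-/- libraries. Some other genes of this list, also looked at after their values were seen, did not follow Fos or followed it in 1 genotype only. Egr1 and Ier3 were lowest in Pax5+/+ replicate 1, and Ier2 and Ier5 were highest in Pax5+/+ replicate 2. These were lower in Pax5-/- replicate 2 than in replicate 1. Junb, Jund and Nr4a1 were higher in Pax5-/- replicate 2, at 91.4 and 119, 71.8 and 98.8, and 6.16 and 6.89 TPM in replicates 1 and 2. Within Pax5+/+, Junb and Jund were highest in replicate 2 and Nr4a1 in replicate 3.

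Of 9 effector kinases and ternary complex factors, which bind CArG boxes together with serum response factor, 1 rose (11.1%) and 2 fell (22.2%). Over all genes tested, these shares were 15.6% and 21.5%. Elk3 rose from 79.3 to 168 TPM (1.08, SE 0.10, limma adjusted p = 0.000292), Elk4 fell from 79.4 to 25.6 TPM (-1.58, SE 0.21, adjusted p = 0.00127) and the kinase gene Rps6ka3 fell (-0.59). Of 8 receptor genes tested, 3 rose (37.5%) and 1 fell (12.5%). Flt3, a receptor of early progenitors, was at 11.1 to 18.1 TPM in Pax5+/+ and at 327 and 388 TPM in Pax5-/- libraries (4.55, SE 0.20, adjusted p = 9.31e-06). Fgfr1 rose from 1.11 to 18.6 TPM (3.59, SE 0.24) and Pdgfrb from 0.253 to 1.69 TPM (1.54, SE 0.29), whereas Igf1r fell from 14.4 to 6.18 TPM (-1.14, SE 0.23). Pdgfrb passed the filter on low values only through its Pax5-/- mean.

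Of the 30 pathway genes named by rule, 15 kept their call under every alternative and 15 lost it without at least 1 library. Leaving out Pax5-/- replicate 2 ended 15 calls, among them those of Rras2 (adjusted p = 0.0798), Rps6ka3 (0.166), Mapk14 (0.0907), Map2k6 (0.185), Map2k3 (0.0643), Rasa2 (0.175), Nf1 (0.325), Gab1 (0.0867), Rasgrp2 (0.0674), Crkl (0.0930) and Igf1r (0.111), and those of Dusp8 and Dusp9 as given above. Leaving out Pax5-/- replicate 1 ended the same calls except that of Map2k3, with the largest adjusted p at 0.152 for Rras2. Without Pax5+/+ replicate 2, Rras2 (0.0520), Rps6ka3 (0.0501) and Nf1 (0.120) did not pass, and Nf1 did not pass without Pax5+/+ replicate 3 either (0.0786).

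**Figure D4:**
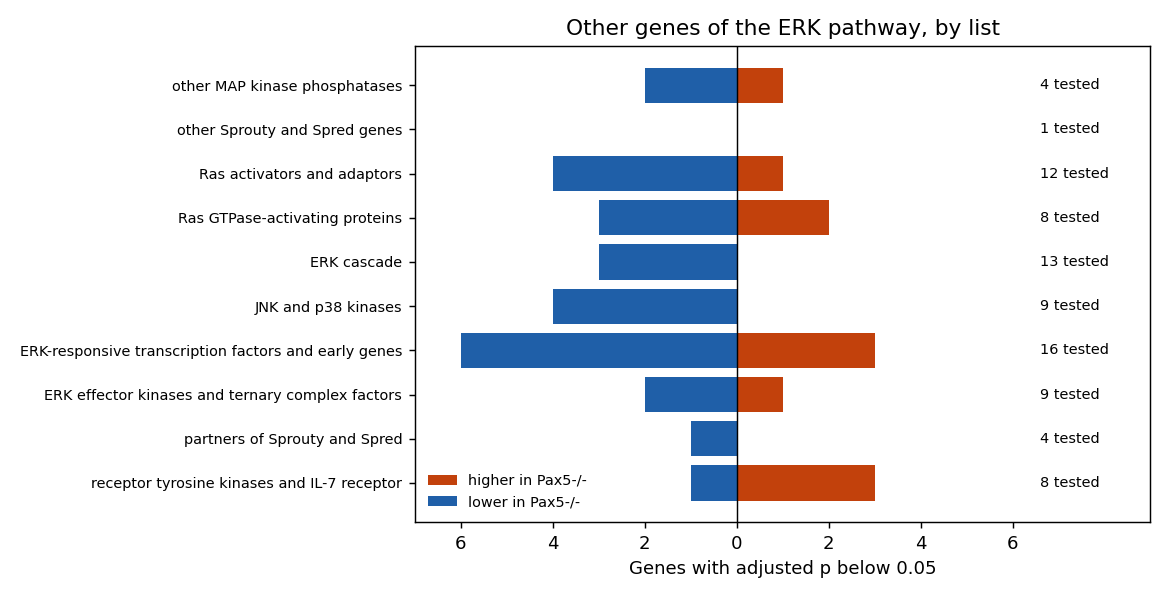
Number of other pathway genes with an adjusted p below 0.05 in each list, with genes lower in Pax5-/- cells to the left (blue) and higher to the right (red), and the number tested at the right edge. The cascade and the JNK and p38 kinases hold calls to the left only, and the receptors hold 3 to the right and 1 to the left. Over all genes tested, 15.6% were higher and 21.5% lower in Pax5-/- cells.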

How the data were processed

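RNA-seq of sorted pro-B cells was examined in 3 Pax5+/+, 2 Pax5-/- and 3 Meox2-cre libraries of polyA RNA. Ribosomal RNA reads were discarded by the authors, who aligned the rest to mm9 with TopHat 1.4.1a (Pax5+/+ and Pax5-/-) or to mm10 with STAR 2.4.2a (Meox2-cre), counted them per gene with featureCounts (version 1.5.0 for mm9) on refGene annotations with immunoglobulin and T cell receptor genes added, and deposited TPM values, without read counts. TPM depend on everything else in the library, so a change in a few abundant genes shifts all others.

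The genotypes were compared by a linear model in limma 3.58.1 (R 4.3.3; lmFit, eBayes with trend) on log2(TPM + 0.5) without covariates. The pseudocount makes fold changes of low genes too small. A gene could pass the filter on low values through 1 genotype alone, and its test is then not separate support for a change. Of the genes named, this holds for Dusp8 and Egr3 (Pax5+/+) and for Egr2, Pdgfrb, Cd4, Gzma and Siglech (Pax5-/-). The study itself used DESeq2 on counts, and its thresholds (3-fold, 5 TPM, without the 518 immunoglobulin and T cell receptor entries) were applied as a second rule. On simulated data for this comparison (11595 genes tested), the fit called 97 of 100 genes changed 2-fold, 100 of 100 changed 6-fold and 10 unchanged genes. The changed genes were drawn from those with a mean above 10 TPM, so recovery was not measured for lower genes such as Dusp4. The simulated spread depended on the level alone and not on the gene. A smaller share of genes changed there than was called in the data. Replicate numbers follow accession order and only name libraries. The text names all 10 genes, and of each pathway list up to 4 genes with the largest change among those called. Members and lists were chosen with earlier results of these data known. Alternatives varied the pseudocount, filter, eBayes, scaling, threshold and libraries. Per-sample columns not used numbered 0. ChIP-seq samples were not analysed here, and some genes of the lists are counted but not reported by name. Coordinates are from GENCODE vM1 (mm9), and promoters from RefSeq (GRCm38.p6, not the build of the values). Tables were made with Python 3.11.15 and pandas 2.3.3.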

Additional observations from a re-analysis of the deposited data

How the results depend on the processing

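Spry1, Dusp5 and Spred2 kept their direction and their call under the 14 alternatives with a test run for each, apart from the test against a 3-fold change. The latter (limma treat) called 0 genes higher and 0 lower, with 1 gene, Spry1, at an unadjusted p below 0.05 and an adjusted p of 0.228. Against 3 genes higher and 4 lower, an adjusted p below 0.01 left 2 higher and 2 lower. Leaving out each library in turn gave 2 to 3 genes higher and 1 to 6 lower, and, of the pathway genes, 9 to 12 higher and 8 to 31 lower against 11 and 26. Without Pax5-/- replicate 1 or 2, the pathway genes lower numbered 9 and 8 and the members lower 1 and 1, while the share of all genes called lower went from 21.5% to 8.20% and 6.83%, and the lone Pax5-/- library was then assumed to vary like the Pax5+/+ libraries. Without Pax5+/+ replicate 2, 2 members were lower. Over the 10 genes, 120 of 140 alternatives with a test kept the direction and the side of the threshold, 14 lost a call, 2 gained one and 4 turned the sign, all 4 of Dusp2, at 0.074 (median-ratio rescaling), 0.047 (quantile normalization), 0.04 (without Pax5+/+ replicate 2) and 0.11 (without Pax5-/- replicate 1), with -0.19 to 0.11 over the libraries left out. The log2 ratio of mean TPM, which has no test, lay within 1 SE of the fitted value for 10 of 10 genes. For the named pathway genes, 37 of 416 lost the call and 0 turned the sign. Median-ratio rescaling moved the median of all genes by 0.11 and quantile normalization by 0.10, with 42.1% of calls higher before and 51.8% and 50.7% after. Relative to that median, Dusp2 differed by 0.08, Dusp6 by -0.18 and Spry2 by -0.32. All 40 alternatives of the Meox2-cre levels stayed within 1 SD. No paired analysis was possible because nothing in the sample labels links a Pax5-/- library to a Pax5+/+ one. The depth in reads is unknown and gives no floor for low genes such as Dusp4.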
